A study of Elaeis guineensis with 58 samples.

Results

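The spear leaf of oil palm (Elaeis guineensis) was compared between ortets, the mother palms of clones. The genes described here are 100 nuclear genes whose median level in zero-embryogenesis palms of agency L2 stood away from the medians of both the low and the high palms of that agency. They were taken from 27805 genes listed under a LOC identifier. Of the 100 members, 68 were higher in the zero palms and 32 were lower. The choice used the log2(CPM + 1) values (CPM is a gene's count scaled by the total count in genes of its library) of the InnuPREP kit libraries of L2. A gene had to have high and low medians less than 0.5 apart, a zero median on the same side of both, and a largest median of at least 3. Of the genes that met these conditions, numbering 6398, the 100 with the largest smaller difference (zero minus low or zero minus high, whichever was nearer 0) were kept. The L2 InnuPREP values therefore describe the members and test nothing.

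Ortets had been sorted by their record of embryoid lines into zero (none), low (1 to 89) and high (90 or more). In L2, the 6 zero palms all carried the genotype label Yangambi_A, which no other palm carried. The 6 low palms were 4 Yangambi_B, 1 Yangambi_C (low palm 3) and 1 Jen Avros (low palm 1). The 8 high palms were 6 Jen Avros, 1 Yangambi_C (high palm 7) and 1 Jen Avros Yangambi (high palm 8). The zero group and the Yangambi_A genotype thus cannot be told apart in L2. Zero palms 2 and 6, low palms 5 and 6 and high palms 3 and 8 were also extracted by a CTAB method and sequenced again. Agency L1 supplied 17 zero palms (12 Dumpy Yangambi Avros and 5 Dumpy Avros) and 15 low palms (8 Dumpy Yangambi Avros and 7 Dumpy Avros), all extracted with CTAB, and no high palms. No palm carried an experimental treatment, and each palm of a group was a separate tree.

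Oil palm is cloned by way of somatic embryogenesis, in which callus from cultured leaf explants of an ortet forms embryo-like bodies, the embryoids. The yield of embryoids differs widely between palms and between breeding populations, and Yangambi, Avros and Dumpy are names of such populations. The spear leaf is the youngest, still unopened frond. Leaf RNA taken from the intact palm records the state of the donor and not of the culture. The tables used here carry no product names for LOC identifiers, so the members are given by identifier and no role is assigned to them.

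In the gene table of assembly EG11, 99 of the 100 members were found. Among those higher in zero palms were 63 protein-coding genes, 2 lncRNAs, 1 pseudogene and 1 miscellaneous RNA. Among those lower in zero palms were 30 protein-coding genes, 1 lncRNA and 1 miscellaneous RNA. Protein-coding genes made up 93.9% of the matched members and 97.4% of matched LOC genes with a largest L2 median of at least 3. Only 1 pair of members had 4 or fewer genes between them along the assembly. LOC105052074 and LOC105052135, both higher in zero palms, were direct neighbours with 0 genes between them.

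Total counts in genes per library ran from 10172221 to 12444209 in L2 zero palms, from 8773354 to 14661769 in low palms and from 10006633 to 15004694 in high palms. They ran from 4215872 to 7580573 in the L2 CTAB libraries and from 3943437 to 9685451 in L1. The plastid genes rbcL and psbA, which leaf tissue expresses strongly, had counts in all 58 libraries. No 2 libraries were identical. In such bulk leaf samples, fewer cells of a type and less RNA per cell cannot be told apart.

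Individual palms stood apart from their group over these genes. L2 zero palm 2 lay nearer the zero median for 42 of the 100 members, against 78 to 98 in the other zero palms. Its library was unexceptional, with 12088082 counts in genes and 10.2% multi-mapped reads, against 10172221 to 12444209 counts and 9.83% to 15.5% in the other zero palms. In L1, low palms 11 and 2 carried high levels of many of the members that were higher in L2 zero palms. Results that rest on these palms are given with and without them.

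The smaller of the 2 median differences ran from 1.15 to 4.02 log2 units for the members higher in zero palms, with a median of 1.47. For the members lower in zero palms its size ran from 1.15 to 3.74, with a median of 1.34. The set has no natural edge, and its make-up depends on the palms. Leaving out each of the 20 palms in turn and choosing again kept 27 of the 100 members in all 20 lists. The last 3 members, LOC105035172, LOC105058359 and LOC105037051, had smaller differences of 1.16, 1.15 and 1.15. The first 3 genes left out, LOC105041200, LOC105056564 and LOC105044664, had 1.15, 1.14 and 1.14.

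**Figure D1:**
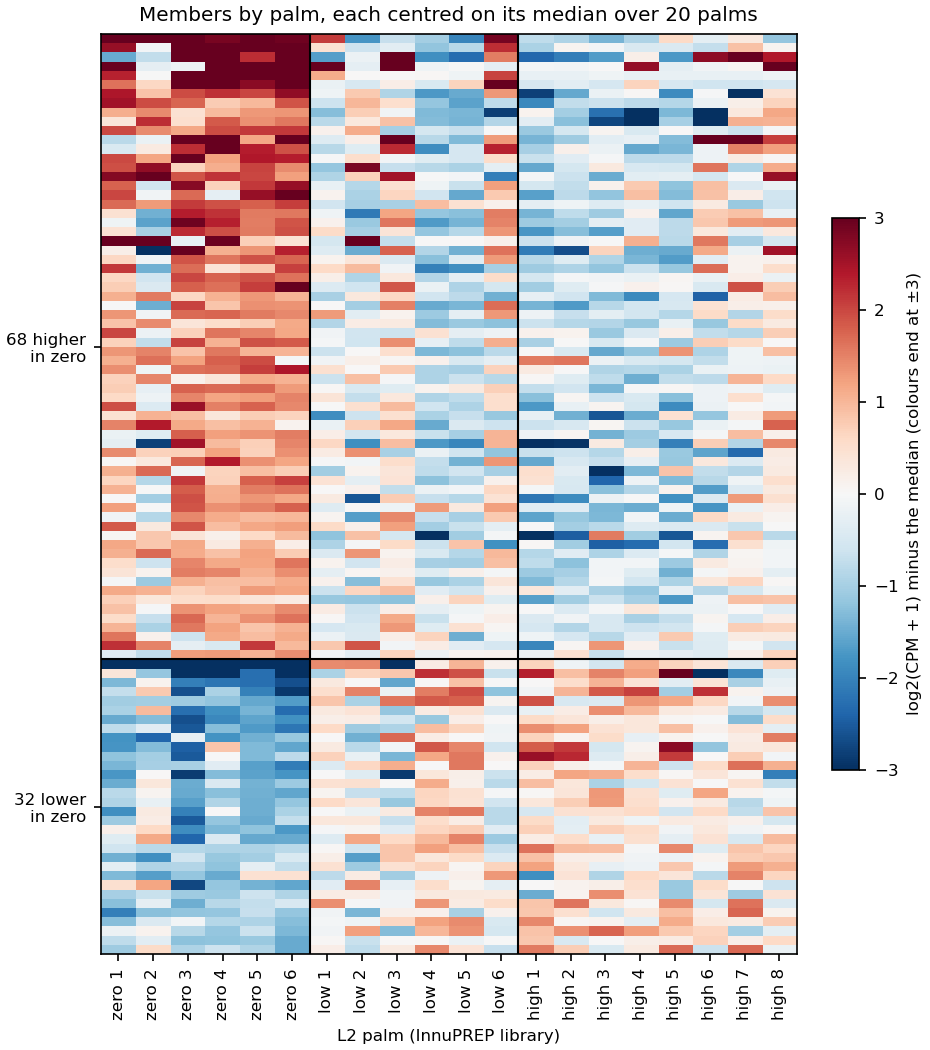
Levels of the 100 members (down the page, ordered by the size of the difference within each direction) in the 20 L2 InnuPREP libraries (across), as log2(CPM + 1) minus the member's median over the 20 palms. The zero palms are at the left. Zero palm 2 lies nearer the zero median for fewer members than the other zero palms. Single low and high palms (low palms 2, 3 and 6, high palms 6 to 8) carry the zero level for some members.

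Palm by palm, the group medians hid a wide spread. Each palm was placed on the zero side or the other side of the midpoint between the zero median and the mean of the low and high medians. Zero palms 1 to 6 were on the zero side for 78, 42, 92, 92, 98 and 96 of the 100 members. Low palms 1 to 6 were on that side for 13, 29, 41, 5, 4 and 40 members, and high palms 1 to 8 for 6, 2, 12, 5, 10, 23, 30 and 31. Zero palm 2 was thus near low palms 3 and 6 in this count. Its group and genotype were taken from the labels, and whether they hold for this palm was not tested.

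All 6 zero palms were on the zero side for 29 members. For 41 members 5 of them were, and zero palm 2 was the missing one in 31 of those. The other 30 members had 4 or fewer zero palms on that side. A median of 2 of the 14 low and high palms were on the zero side per member, with a maximum of 6, and 7 members had none.

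The low and high palms that shared the zero level did not follow 1 genotype label. The 7 Jen Avros palms were on the zero side for 2 to 23 members each, and 53 members had no Jen Avros palm there. For 30 members none of the 4 Yangambi_B palms was on the zero side, although Yangambi_B low palms 2 and 6 were there for 29 and 40 members and low palms 4 and 5 for 5 and 4. Both Yangambi_C palms (low palm 3 and high palm 7) were on the zero side for 18 members and neither was for 47. The highest counts were in low palms 3 and 6 (41 and 40), high palms 8 and 7 (31 and 30) and low palm 2 (29). All of these carry Yangambi in their label, high palm 8 as Jen Avros Yangambi, but so do low palms 4 and 5.

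**Figure D2:**
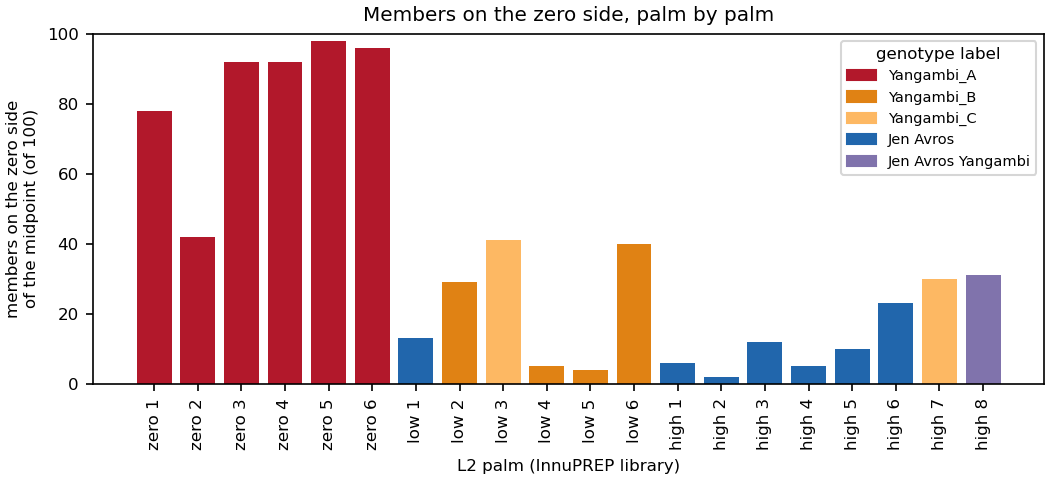
Number of the 100 members (vertical axis) for which each L2 palm (InnuPREP library, horizontal axis) lay on the zero side of the midpoint between the zero median and the mean of the low and high medians, coloured by genotype label. Zero palms reach 42 to 98 members, low palms 4 to 41 and high palms 2 to 31.

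Complete separation of the zero palms was rare. The 6 zero palms did not overlap the 14 low and high palms for 4 of the 100 members, 3 higher (LOC105043204, LOC105052074 and LOC105032193) and 1 lower (LOC105038152). Over all 14484 LOC genes with a largest median of at least 3, 0.304% did not overlap (0.069% higher and 0.235% lower), and since the members were chosen on these values nothing is read from the difference. Without zero palm 2 the count was 20 members (16 higher and 4 lower), against 1.47% of all these genes. Without low palm 2 it was 9 (0.898% of all these genes), without low palm 6 it was 7 (0.739%) and without zero palm 4 it was 7 (0.442%). The label that these genes set the zero palms apart therefore holds for group medians and, at the level of single palms, for these few.

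The palm-to-palm spread of the members was wide. The choice used the L2 values, so nothing is read from how those compare with all genes. The median SD of a member on the log2 scale was 0.79 over the 6 zero palms, against 0.29 for all 14484 genes. Over the 14 low and high palms it was 0.78 for members and 0.46 for all genes. Over the 32 L1 palms, which the choice did not use, it was 0.92 for members and 0.50 for all genes.

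Among the members higher in zero palms, LOC105037653 had the largest difference. Its levels in zero palms 1 to 6 were 83.2, 92.9, 125, 60.8, 70.8 and 63.6 CPM. Low palms 1 to 6 had 35.6, 1.53, 4.36, 3.25, 1.16 and 61.4 CPM, and high palms 2.26 to 12.1 with a median of 3.79 CPM. All zero palms were high, and so were low palms 1 and 6, the second of which lay above zero palm 4. In L1 the same gene ran from 1.53 to 77.9 CPM in zero palms and from 0.725 to 86 CPM in low palms, a range as wide as that of L2.

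LOC105040787 and LOC105045465 were raised in every zero palm, with 1 palm of the other groups reaching the lowest zero palm. LOC105040787 had 100 to 353 CPM in zero palms with a median of 236 CPM, the lowest being zero palm 2. Low palms had 15.7 to 137 CPM and high palms 5.43 to 73.7 CPM, and low palm 6 was the one above zero palm 2. LOC105045465 had 68.7, 45.9, 39.9, 19.6, 23 and 43.9 CPM in zero palms, against 3 to 23.2 CPM in low palms and 2.2 to 18.4 CPM in high palms.

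The members higher in zero palms whose palms did not overlap were named after their values were seen, as was the neighbour LOC105052135. LOC105052074 had 458, 266, 959, 270, 617 and 595 CPM in zero palms 1 to 6, against 81.4 to 169 CPM in low palms and 66.3 to 137 CPM in high palms. LOC105032193 had 58.9, 43.6, 76.8, 68.4, 62.6 and 75.9 CPM in zero palms, against 8.16 to 33.8 CPM in low palms and 7.48 to 20.9 CPM in high palms. LOC105043204 had 56.1, 38, 31.5, 55.5, 61.9 and 62.4 CPM in zero palms, against 6.28 to 30.3 CPM in low palms and 5.75 to 14.4 CPM in high palms. The gap was narrow for LOC105043204, where zero palm 3 and low palm 2 were next to each other, and wider for LOC105052074. LOC105052135, which lies beside LOC105052074, was less orderly, with 14.8 to 61.5 CPM in zero palms but 69 CPM in low palm 2 and 29.1 CPM in high palm 6.

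Other members with large median differences were split within the zero group. LOC105057614 had 32.9, 4.22, 94.3, 46.2, 71.8 and 89 CPM in zero palms 1 to 6. Low palms had 1.42 to 24.6 CPM and high palms 1.86 to 9.09 CPM. Zero palm 2 lay within the range of the low and high palms and the other zero palms lay above it.

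LOC105035002 and LOC105032225 had few counts outside the zero group. LOC105035002 had 4.76, 0.165, 8.2, 9.28, 10.6 and 11.6 CPM in zero palms, against 0.0682 to 3.76 CPM in low palms and at most 0.073 CPM in high palms. LOC105032225 had 3.71, 1.32, 14.6, 15.2, 8.95 and 11.2 CPM in zero palms. It was at most 1.43 CPM in 5 low palms and at most 1.4 CPM in high palms, but low palm 6 had 17.8 CPM, above every zero palm.

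LOC105040704 and LOC105052641 were high in some palms of every group. LOC105040704 had 2.02, 4.14, 249, 98.7, 38.9 and 154 CPM in zero palms 1 to 6. Low palm 3 (261 CPM) and high palm 7 (169 CPM), both Yangambi_C, were as high, as were high palms 6 and 8 to a lesser degree (54.6 and 44.6 CPM), whereas low palm 5 had 0.75 CPM. The gene thus split the palms across the embryogenesis groups, and it was chosen again in 6 of the 20 lists that leave out 1 palm.

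LOC105052641 behaved as present or absent in single palms. Zero palms 1 to 6 had 8.48, 0, 0.0837, 9.53, 10 and 10.7 CPM. Low palms 1 and 3 had 10.4 and 11.6 CPM and the other low palms at most 0.205 CPM. High palms 4 and 8 had 6.6 and 14.9 CPM and the others at most 0.267 CPM. No palm lay between the higher level (6.6 CPM and above) and the lower (0.267 CPM and below). The L1 palms split the same way. In L1 zero palms 12 of 17 had 0 counts and 5 had 12.6 to 21.6 CPM, and in L1 low palms 6 of 15 had 0 counts and 9 had 8.43 to 25.1 CPM.

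**Figure D3:**
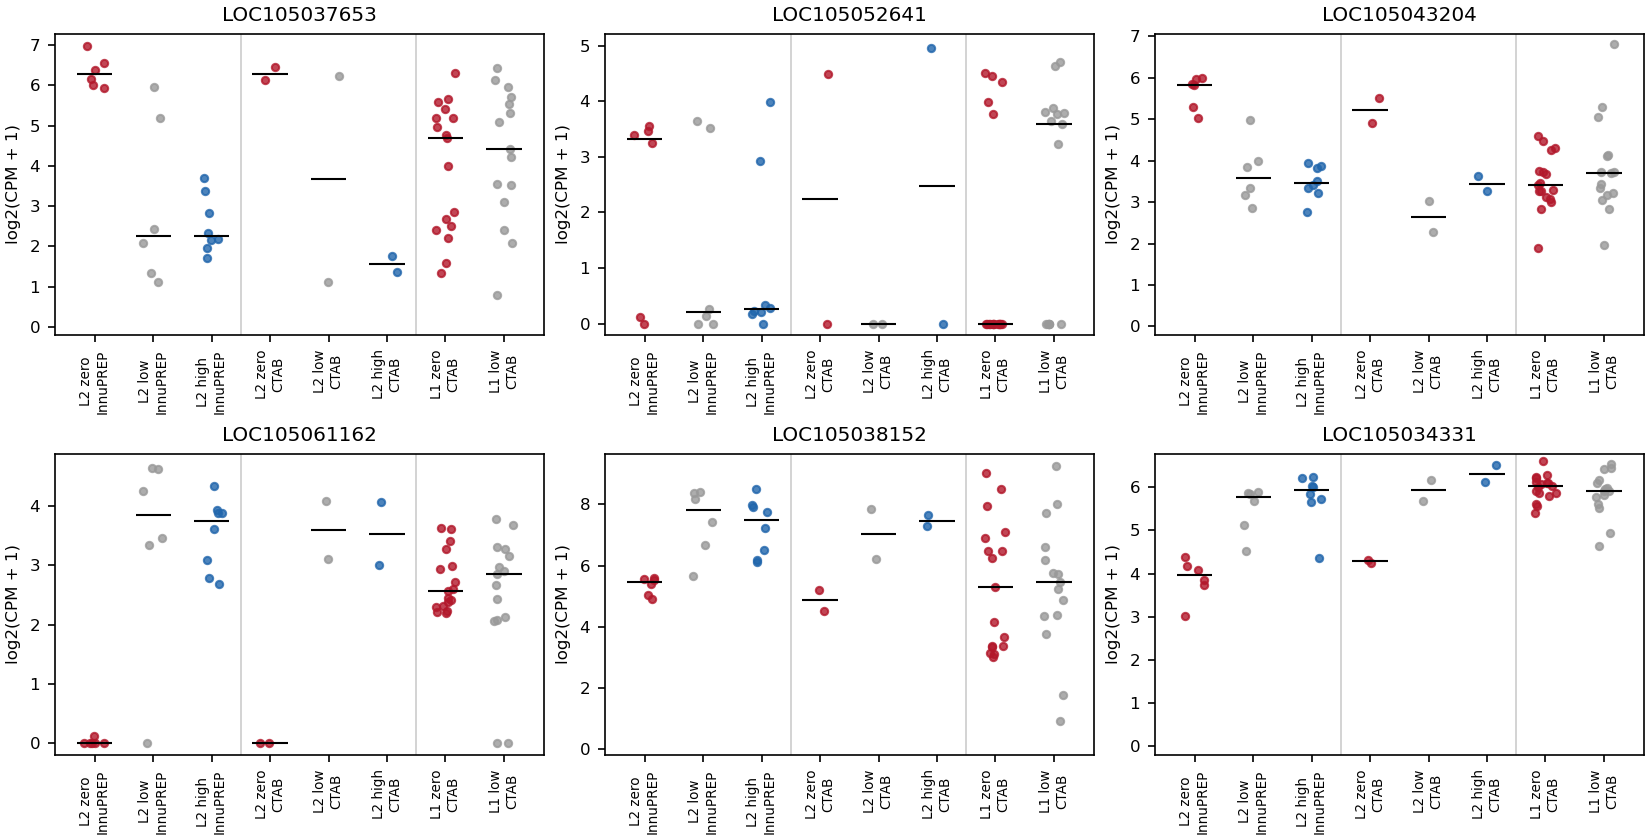
Levels of 6 members, as log2(CPM + 1) on the vertical axis, in each library by agency, embryogenesis group and extraction, with a bar at each group's median. The first row holds members higher in L2 zero palms and the second row members lower in them. LOC105061162 is at 0 or 1 count in all L2 zero libraries but present in all 17 L1 zero palms, and LOC105052641 falls into a high and a low level in both agencies.

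Among the members lower in zero palms, LOC105061162 was nearly absent from the zero group. Over the 6 zero palms it had 1 count in all, in zero palm 4 (0.0836 CPM). Low palms 1 to 6 had 23.8, 24.1, 0, 10, 18 and 9.12 CPM, and high palms 5.4 to 19.3 CPM. Low palm 3, a Yangambi_C palm, was the only low or high palm at 0. Summed over palms, the gene had 1 count in zero palms and 2157 counts in low and high palms, which describes values that the choice used. It was not absent from zero palms as such, because in L1 no zero palm had 0 counts and 2 of 15 low palms did, with 3.6 to 11.5 CPM in L1 zero palms.

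LOC105038152 was the only lower member without overlap. Zero palms 1 to 6 had 45.9, 46.9, 44.8, 41.3, 32.1 and 29.2 CPM, against 49.3 to 342 CPM in low palms and 68.2 to 360 CPM in high palms. The zero palms lay close together, just under low palm 2. LOC105034331 had 17, 19.8, 7.11, 12.4, 15.9 and 13.4 CPM in zero palms. Low palms had 22.1 to 58.8 CPM and high palms 19.6 to 75 CPM. Only high palm 7, a Yangambi_C palm, reached into the zero range.

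The remaining large members of this direction overlapped more. LOC105048398 had 70, 23.8, 2.34, 3.43, 10.6 and 5.38 CPM in zero palms, against 27.8 to 252 CPM in low palms and 3.87 to 481 CPM in high palms, so that high palm 6 was as low as most zero palms. LOC105052936 had 43.1, 125, 10.7, 36.6, 16.9 and 8.76 CPM in zero palms, against 30.4 to 280 CPM in low palms and 35.1 to 333 CPM in high palms. LOC105060202 had 28.2, 108, 10.8, 15.1, 20.3 and 10.3 CPM in zero palms, against 24.3 to 75.8 CPM in low palms and 30.7 to 148 CPM in high palms. In both LOC105052936 and LOC105060202 zero palm 2 was the high one of its group. LOC105048546 had 0.884 to 11.7 CPM in zero palms, against 3.02 to 20.9 CPM in low palms and 4.99 to 23 CPM in high palms. LOC105051838 had 3.26 to 18.6 CPM in zero palms, against 10.9 to 46 CPM in low palms and 19.2 to 64.7 CPM in high palms, and zero palm 2 was again the highest of its group for each.

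The L2 CTAB libraries gave a second measurement, not used in the choice, of 6 of the same palms. They repeat the library and not the palm. Zero palm 2 differed from the mean of the same 4 low and high palms by a median of 0.08 log2 units in InnuPREP and 0.22 in CTAB libraries for the members higher in zero. For zero palm 6 these medians were 1.68 and 1.66. For the members lower in zero they were -0.50 and -0.49 in zero palm 2 and -1.62 and -1.61 in zero palm 6. The small median departure of zero palm 2 and the large one of zero palm 6 were thus measured in both extractions. Single members departed far in zero palm 2, in both directions. Among the members higher in zero, LOC105037653 differed there by 3.87 (InnuPREP) and 3.83 (CTAB), and LOC105048687 by -4.05 and -4.02.

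**Figure D4:**
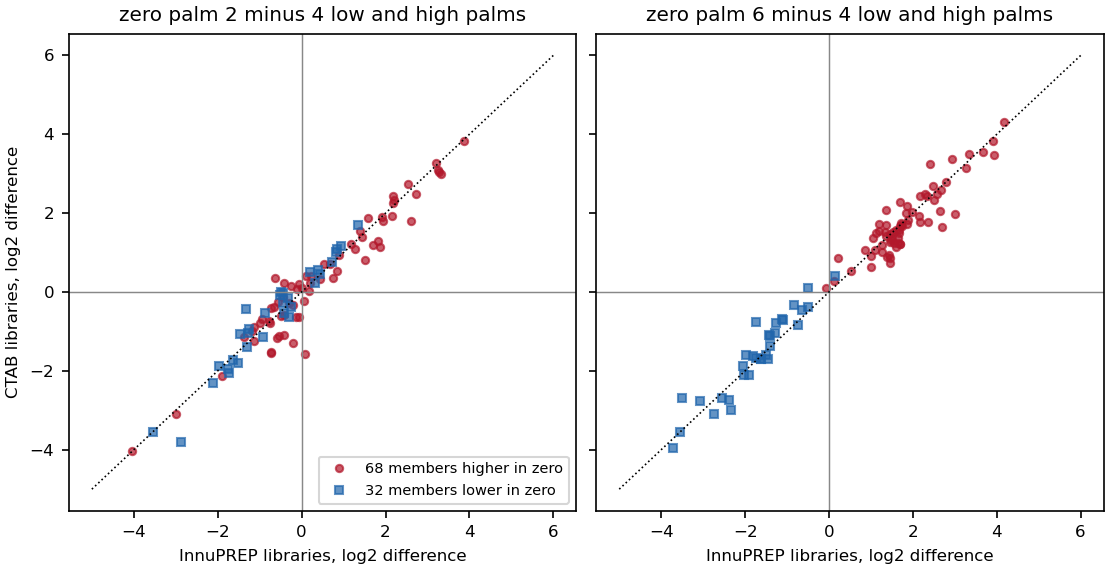
Difference of zero palm 2 (left) and zero palm 6 (right) from the mean of low palms 5 and 6 and high palms 3 and 8, per member, in CTAB libraries (vertical axis) against InnuPREP libraries of the same palms (horizontal axis), both as log2(CPM + 1). The dotted line marks equal values. Members lie along the line for both palms, while the directions mix for zero palm 2 and separate for zero palm 6.

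The CTAB zero libraries were tested against the pooled low and high libraries over all genes. By edgeR's quasi-likelihood test with Benjamini-Hochberg adjustment, 0 of 19626 genes had an adjusted p below 0.05, a share of 0%, and 796 had an unadjusted p below 0.05 (4.06%). DESeq2 called 23 genes, 0.157% of those to which it gave an adjusted p. None of the 100 members was called by edgeR, and the lowest adjusted p of a member was 0.546. At an unadjusted p below 0.05 there were 32 members, 24 higher (2.39% of all genes) and 8 lower in zero (1.67%), each with the sign of the choice. The choice used InnuPREP libraries of the same palms, so nothing is read from how the members compare with all genes here. DESeq2 called 8 members (5 higher and 3 lower), among them LOC105043204, LOC105032193 and LOC105045465, which were higher, and LOC105061162, LOC105038152 and LOC105034331, which were lower.

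In sign and size the members followed the InnuPREP libraries of those palms. The fitted fold change, zero over low and high, was positive for 66 of the 68 higher members and negative for 27 of the 32 lower ones. Its median was 1.26 log2 units for the higher members, -0.93 for the lower members and -0.03 for all genes tested. The value rested on zero palm 6. Without the CTAB library of zero palm 6, 59 members kept the sign of the choice and the medians were 0.27 and -0.50. Without that of zero palm 2, 97 did and the medians were 1.61 and -1.76. Both zero libraries lay outside all 4 low and high libraries for 23 members (15 of 68 higher and 8 of 32 lower), against 12.7% of all 14484 genes (3.09% higher and 9.65% lower). Since the choice used the same palms, nothing is read from the signs or from these shares.

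The 4 members whose palms did not overlap in InnuPREP libraries did not overlap in CTAB libraries either. The CTAB libraries are second libraries of some of the same palms, so this outcome repeats the measurement and is no separate support. LOC105043204 had 29.2 and 44.8 CPM in CTAB libraries of zero palms 2 and 6, against 3.85 and 7.12 CPM in low palms 5 and 6 and 11.3 and 8.54 CPM in high palms 3 and 8. Its fold change was 2.39 ± 0.40 log2 units (SE) with an edgeR adjusted p of 0.999. LOC105032193 had 39.7 and 74.6 CPM in the zero palms, against 20.7 and 11.6 CPM in the low and 13.7 and 8.38 CPM in the high palms. LOC105052074 had 176 and 411 CPM in the zero palms, against 42.3 and 121 CPM in the low and 76.9 and 82.6 CPM in the high palms. LOC105038152, the lower one, had 35.7 and 21.9 CPM in the zero palms, against 227 and 73.1 CPM in the low and 154 and 201 CPM in the high palms. In each the 2 zero libraries lay outside the other 4, and none of these differences passed the adjusted threshold in edgeR, whereas DESeq2 called LOC105043204, LOC105032193 and LOC105038152.

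Some members were steady in zero palms 2 and 6 while others were not. LOC105045465 had 103 and 99.1 CPM in the CTAB zero libraries, against 7.03 and 12.3 CPM in the low and 11.2 and 44.1 CPM in the high libraries. LOC105034331 had 19 and 18 CPM in the zero libraries, against 71.4 and 50.5 CPM in the low and 68.3 and 90.8 CPM in the high libraries. LOC105061162 had 0 counts in both zero libraries, where 3 counts would have been 0.517 and 0.525 CPM, against 15.9 and 7.59 CPM in the low and 6.99 and 15.8 CPM in the high libraries. LOC105037653 had 86.8 and 69.2 CPM in the zero libraries, against 1.17 and 74.7 CPM in the low and 1.58 and 2.37 CPM in the high libraries. Low palm 6 was therefore at the zero level of LOC105037653 in both extractions. Without its CTAB library LOC105037653 was the only gene called by edgeR, with a fold change of 5.68 log2 units, against 2.08 with that library.

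Palm-specific levels of the split members returned in the second library. LOC105057614 had 2.93 CPM in the CTAB library of zero palm 2 and 97.5 CPM in that of zero palm 6. LOC105052641 had 0 counts in zero palm 2 and 21.4 CPM in zero palm 6, against 0 counts in both low libraries and 0 counts in high palm 3 and 30.2 CPM in high palm 8. LOC105060202 had 78.3 CPM in zero palm 2 and 6.3 CPM in zero palm 6. Each of these members differed more between the 2 zero palms than between extractions of a palm.

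For 7 members the plain CTAB difference on the log2(CPM + 1) scale ran against the choice, 4 of them higher and 3 lower in L2 zero palms. They were named after their values were seen. LOC105048687 had 56.9, 4.55, 536, 106, 127 and 259 CPM in InnuPREP libraries of zero palms 1 to 6, against 17.3 to 174 CPM in low palms and 7.11 to 292 CPM in high palms. In CTAB libraries it had 4.66 and 237 CPM in zero palms 2 and 6, against 22.2 and 201 CPM in low palms 5 and 6 and 61.9 and 241 CPM in high palms 3 and 8. LOC105046700, LOC105050039 and LOC105047188 were alike in this, with zero palm 2 the lowest zero palm and low palms 3 and 6 and high palm 8 above it. The 6 palms extracted again included zero palm 2, low palm 6 and high palm 8. The lower members of this kind were LOC105046023, LOC105055067 and LOC105048744, in each of which zero palm 2 had the highest InnuPREP level of the zero palms.

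Among members named after their values were seen, LOC105042035, LOC105039376 and LOC105056904 were high in zero palm 2 as well. LOC105042035 had 545, 763, 396, 533, 642 and 525 CPM in zero palms 1 to 6, against 95.3 to 401 CPM in low palms and 47.5 to 495 CPM in high palms. LOC105039376 had 65.1, 237, 72.2, 184, 133 and 152 CPM in zero palms, against 18.6 to 93.3 CPM in low palms and 3 to 108 CPM in high palms. LOC105056904, annotated as a pseudogene, had 18.7 to 40 CPM in zero palms, against 5.28 to 17.6 CPM in low palms and 6 to 21.8 CPM in high palms. For all 3 members low palm 3 was the highest low palm, high palms 7 and 8 were the highest high palms, and zero palm 2 was the highest zero palm. In L1 these members were high in single palms of both groups. LOC105042035 reached 355 CPM in L1 zero palm 11 and 286 CPM in L1 low palm 9, and LOC105039376 reached 153 and 71.5 CPM in the same palms, while the lowest L1 levels were 1.57 and 1.01 CPM.

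Extraction itself moved many genes, which bears on setting L1 levels beside L2 InnuPREP levels. Across the 12 libraries of the 6 palms, with the palm as a block, edgeR called 11198 of 20803 genes between CTAB and InnuPREP libraries (53.8%). Of the 100 members 57 were called, 11 higher and 46 lower in CTAB, whereas 25.3% of all genes were called higher and 28.5% lower. Called members were thus more often lower than higher in the CTAB library of the same palm. The difference between zero and other palms was not called as unequal between the extractions for any of the 20803 genes by edgeR's interaction term or by DESeq2. There 436 genes and 5 members had an unadjusted p below 0.05 by edgeR, which is 2.1% of all genes (1.28% with a positive and 0.817% with a negative term). The term was negative for 3 of the 5 members, all 3 higher in zero, and positive for 2, both lower in zero.

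L1 asked whether the same genes differed between zero and low palms of other genotypes. By edgeR 0 of 18434 genes were called between L1 zero and L1 low palms (0%), with 1337 at an unadjusted p below 0.05 (7.25%), and DESeq2 called 0. Of the members 91 passed the filter on low counts and none was called. The fold change, zero over low, was positive for 12 of the 59 tested members higher in L2 zero palms, with a median of -0.31 log2 units. All genes tested had a median of -0.03 and 44% were positive. All 9 of those members with an unadjusted p below 0.05 were lower in L1 zero palms, the opposite of L2, against 4.57% of all genes that were lower at that p.

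That tilt depended on 2 low palms. L1 low palm 11 lay at least 1 log2 unit above the L1 median for 39 of the 68 higher members, against 8.98% of all genes in that palm, and low palm 2 did so for 22, against 3.62% of all genes in that palm. L1 zero palm 11 was close to low palm 2 in this count, with 21 members, against 8.05% of all genes. Over the 68 members the mean departure from the L1 median was 0.99 log2 units in low palm 11, 0.72 in low palm 2 and 0.48 in zero palm 11. Low palms 11 and 2 are Dumpy Yangambi Avros palms with 1 and 3 embryoid lines, and zero palm 11 carries the same genotype label. The library of low palm 11 had 4480287 counts in genes and 32.9% multi-mapped reads, and that of low palm 2 had 8383454 counts and 8.79%, near opposite ends of the L1 low palms. The part of these library measures in the result was not tested. Without low palm 11 the fold change was positive for 19 of 60 higher members with a median of -0.14. Without low palms 2 and 11 it was positive for 25 of 58 with a median of -0.08. Members of either direction with an unadjusted p below 0.05 numbered 11 with all palms, 3 without low palm 11 and 2 without low palms 2 and 11.

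The members lower in L2 zero palms showed no such tilt in L1. Their fold change, zero over low, was negative for 20 of 32, with a median of -0.07 log2 units, and 1 in each direction had an unadjusted p below 0.05 (2.68% higher and 4.57% lower among all genes).

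Single members show the weight of those palms. LOC105052074 had 928 and 535 CPM in L1 low palms 11 and 2, whereas the L1 zero palms had 45.6 to 177 CPM. LOC105057614 had 136 and 54.2 CPM in low palms 11 and 2, against a highest zero palm of 12.8 CPM. LOC105043204 had 111 CPM in low palm 11 and 2.7 to 23.3 CPM in zero palms. No L2 low or high library reached these levels. For LOC105057614 the fold change, zero over low, was -1.50 ± 0.51 (SE, edgeR adjusted p = 0.532) and without low palms 2 and 11 it was 0.12.

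LOC105060906, named for the smallest L1 p among members, had 68.4 to 116 CPM in L2 zero palms, against 18 to 110 CPM in low palms and 7.57 to 50.8 CPM in high palms. In L1 it had 0.225 to 24.4 CPM in zero palms, while low palms 6, 15 and 1 had 271, 109 and 88.5 CPM. Its fold change there was -2.78 ± 0.76 (SE, zero over low) with an edgeR adjusted p of 0.507.

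**Figure D5:**
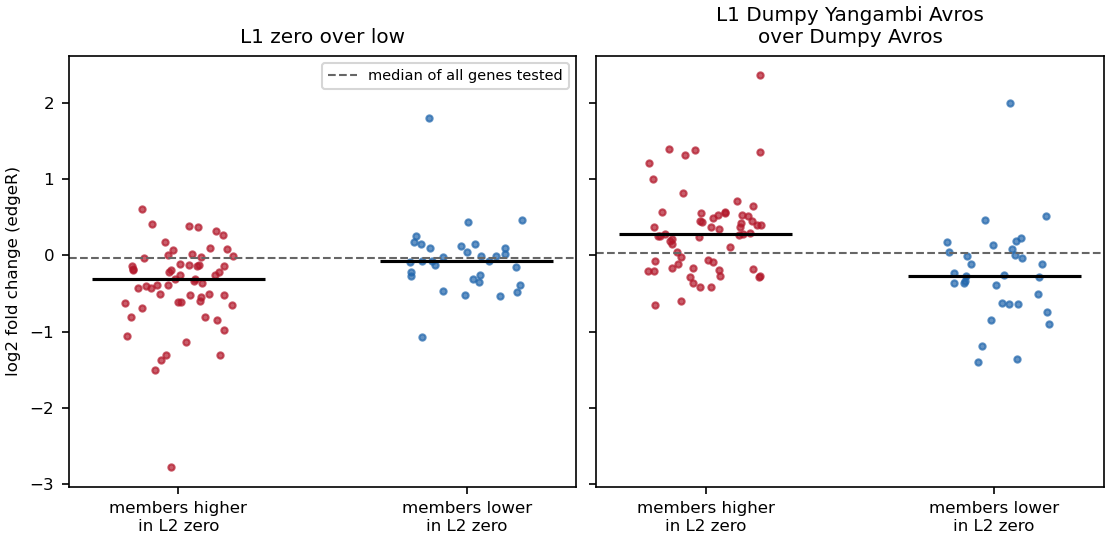
edgeR log2 fold changes of the members in L1, zero over low palms (left) and Dumpy Yangambi Avros over Dumpy Avros palms (right), 1 point per member tested, split by direction in L2 zero palms. Black bars are medians (-0.31 and -0.07 on the left, 0.28 and -0.27 on the right) and the dashed line is the median of all genes tested.

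The L1 palms were also divided by genotype, since Yangambi stands in the label of the L2 zero palms and in that of 20 L1 palms. Yangambi also stands in the labels of L2 low and high palms (Yangambi_B, Yangambi_C and Jen Avros Yangambi). The word therefore does not mark the L2 zero palms, and a link of the members to Yangambi descent was not tested. Between Dumpy Yangambi Avros and Dumpy Avros palms edgeR called 0 of 18689 genes (0%), with 1315 at an unadjusted p below 0.05 (7.04%), and DESeq2 called 18. None of the 92 members that passed the edgeR filter was called by edgeR, and DESeq2 called none of the 100 members. The fold change, Dumpy Yangambi Avros over Dumpy Avros, was positive for 40 of 60 members higher in L2 zero palms, with a median of 0.28 log2 units. It was negative for 22 of 32 members lower in them, with a median of -0.27, and the median of all genes was 0.03. Without L1 low palms 2 and 11, both Dumpy Yangambi Avros, the higher members were positive in 32 of 59 with a median of 0.08, and the lower members kept a median of -0.25. At an unadjusted p below 0.05 there were 5 higher members, all positive, and 8 lower members, 7 of them negative, against 3.32% of all genes that were positive and 3.71% that were negative.

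The 5 members of smallest p in that comparison were all lower ones, LOC105059007, LOC105060202, LOC105032936, LOC105055067 and LOC105052936, and the 3 of them that were described above are given here. LOC105060202 had 6.03 to 74 CPM in Dumpy Yangambi Avros palms with a median of 26.6, against 14.5 to 83.3 CPM in Dumpy Avros palms with a median of 47.9. LOC105052936 had 4.3 to 106 CPM with a median of 19.7 in Dumpy Yangambi Avros palms, against 3.73 to 272 CPM with a median of 70.6 in Dumpy Avros palms. LOC105055067 had 0.462 to 6.61 CPM with a median of 2.41 in Dumpy Yangambi Avros palms, against 1.53 to 10.2 CPM with a median of 4.64 in Dumpy Avros palms. The ranges of each member overlapped. The fold changes were -0.84 ± 0.28 for LOC105060202, -0.90 ± 0.31 for LOC105055067 and -1.36 ± 0.48 log2 units (SE) for LOC105052936, each with an edgeR adjusted p of 0.598.

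The L1 palms were placed palm by palm as well. For the 51 members with a CTAB difference of at least 1 log2 unit in the direction of the choice, each L1 palm was placed on one or the other side of the midpoint of the L2 CTAB libraries. L1 zero palms were on the zero side for 11 to 17 members (median 14) and L1 low palms for 11 to 27 (median 16). The highest 2 palms were low palm 11 with 27 and low palm 2 with 22. The L2 CTAB libraries, whose counts are fixed by that choice of members and midpoints, gave 32 and 49 members in zero palms 2 and 6, against 1 and 14 in low palms 5 and 6 and 3 and 17 in high palms 3 and 8. By genotype label the L1 median was 15 in both Dumpy Yangambi Avros (11 to 27) and Dumpy Avros palms (11 to 17). The midpoint came from L2, so a member whose level differs between agencies falls on 1 side in most L1 palms. LOC105047714 had at most 1.12 CPM in L1, against 3.97 to 17.5 CPM in L2 zero palms (InnuPREP). LOC105048272 had an L1 median of 60 CPM, against 1.86 to 15.5 CPM in L2 Jen Avros palms (InnuPREP). These counts therefore cannot decide whether the L1 groups or genotypes differ.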

How the data were processed

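Spear leaf RNA was profiled by 3' end sequencing (QuantSeq forward kit) in 58 libraries of 52 palms, per the labels. L1 reads were longer than L2 reads, per the labels' protocols. The authors deposited unnormalized whole-number counts for each gene, with 5 HTSeq summary lines per table that were left out. bcl2fastq, STAR 2.7.2b and HTSeq 0.11.2 are named in the submitters' processing notes. The genome build, strand setting and handling of near-identical copies are not given in the sources used here, so a gene with a near copy or an overlapping gene has an uncertain count.

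CPM was computed from gene totals and taken as log2(CPM + 1). Comparisons used edgeR 4.0.16 in R 4.3.3 (TMM, filterByExpr, robust glmQLFit, glmQLFTest) on all genes, with Benjamini-Hochberg adjustment and a threshold of 0.05. Each standard error is the fold change divided by the square root of its F value. The main edgeR fits, except that of the interaction term, were tested on simulated data, and the DESeq2 fits were not. Alternatives were RLE scaling, no filter, DESeq2 1.42.0, other scalings of the rule and left-out palms. Members, lists and named genes were chosen with earlier results of these data known. The named genes are the 8 members per direction with the largest smaller difference and the genes about the rank limit. Others were named for a small p or after their values were seen. Not all called members are named, neither those called between the extractions nor those called by DESeq2. Of the L2 libraries, the CTAB ones pair with InnuPREP ones by the palm label. Pooling low with high CTAB palms, the interaction term, the fits without L1 low palms 2 and 11 and the counts of separated members without single palms are choices of this work, and all but the first were made after the data had been seen. EG11 was used for names, gene types and gene order only.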

Additional observations from a re-analysis of the deposited data

Results flagged for a closer look

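These gaps are given as a description, since the members were chosen on the same L2 InnuPREP values. A gap between 1 palm and the rest of its group beyond Dixon's critical value was found for 8 of 57 pairs of a gene and a group. These pairs cover 19 of the named genes, the 8 members per direction with the largest smaller difference and the members without overlap. Over all members such a gap was found for 25 of 300 pairs. The criterion picks about 1 in 20 groups of normal values by chance. Zero palm 2 was far below the other zero palms for LOC105057614 (4.22 CPM) and LOC105035002 (0.165 CPM), and in the number of members on the zero side (42). LOC105061162 had 0.0836 CPM, a single count, in zero palm 4 where the other zero palms had 0, which meets the criterion by construction, and it was at 0 in low palm 3. LOC105032225 stood out in low palm 6 at 17.8 CPM and in high palm 4 at 1.4 CPM. LOC105048546 was low in low palm 3 at 3.02 CPM, and LOC105034331 was low in high palm 7 at 19.6 CPM. Low palm 3 and high palm 7 both carry the Yangambi_C label.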

How the results depend on the processing

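The membership depends on the summary used. With group means in place of medians 60 of the 100 members were shared, and leaving out single palms shared 61 to 87, with the lowest counts (61 to 71) when a low palm was left out, and 27 members were in all 20 of these lists. TMM-scaled CPM shared 89 and log2(CPM + 0.5) shared 90. The count of members whose zero palms did not overlap ran from 4 to 20 when single palms were left out, with 20 without zero palm 2.

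In the L2 CTAB comparison DESeq2 called 23 genes and 8 members where edgeR called 0, and leaving out single libraries gave 0 to 1 gene and 0 to 1 member. Members with the sign of the choice ran from 59 to 97 when single libraries were left out, lowest without zero palm 6. For Dumpy Yangambi Avros against Dumpy Avros palms, 5 genes were called with no filter on low counts, 18 by DESeq2 and 1 without L1 low palms 2 and 11, none of them a member. The fold change of LOC105057614 in L1 reversed to 0.12 without low palms 2 and 11. Without the replicate block of palms, CTAB against InnuPREP gave 2875 called genes and 2 called members. The cause was not tested for any of these. Among the recomputed counts 119 stayed near their value and 19 moved, and among the values of named genes 7 became called (6 in CTAB libraries by DESeq2 and LOC105037653 without low palm 6), 1 reversed and the others kept sign and call. Depth limits members with few counts, such as LOC105061162 in L2 zero palms (1 count in all) and LOC105035002 in high palms (2 counts in all).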
